A study of Mus musculus with 2 samples.

Results

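Of the 55488 gene rows in the 2 matrices, 10 were followed here by symbol, chosen because their products carry, bind, control or mark the transport of calcium, magnesium or sodium chloride in the distal nephron: S100g, Calb1, Trpv5, Trpv6, Trpm6, Slc8a1, Slc12a3, Atp2b1, Pvalb and Egf. Each symbol matched 1 row in both matrices. The libraries were made from newborn mouse kidney (postnatal day 0, source tissue labelled embryonic kidney) by droplet single-cell RNA-seq, in which each cell's mRNA is tagged at its 3′ end and counted as unique molecular identifiers (UMIs). The KO library came from Flcn homozygous floxed mice carrying Six2Cre (flox/flox). The WT library came from mice that also carried Six2Cre but were heterozygous for the floxed allele (flox/+), so its label WT does not mean an intact Flcn pair or a Cre-free animal. Six2-Cre acts in nephron progenitors and is inherited by the nephron epithelium formed from them, and not by ureteric bud, stroma, endothelium or immune cells. There was 1 library per genotype, and the number of animals in each is not given. No test across samples was therefore possible. Every interval below covers counting error only, takes UMIs as independent, and leaves out the spread between cells and between animals. Flcn encodes folliculin, a protein that acts at the lysosome on mTORC1 and on the transcription factors TFEB and TFE3.

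The distal convoluted tubule and the connecting tubule that follows it set how much filtered calcium and magnesium leave in urine. Calcium enters the cell at the luminal side through TRPV5 and TRPV6, crosses it bound to calbindin-D28k (Calb1) and calbindin-D9k (S100g), and leaves at the blood side through the sodium-calcium exchanger NCX1 (Slc8a1) and the plasma membrane calcium pump PMCA1 (Atp2b1). Magnesium enters through TRPM6, which epidermal growth factor (Egf) is known to stimulate. The thiazide-sensitive cotransporter NCC (Slc12a3) carries sodium chloride in the distal convoluted tubule, and parvalbumin (Pvalb) marks the early part of that segment in the adult mouse.

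The genes lie on 9 chromosomes of GRCm38. S100g (ENSMUSG00000040808) spans X:162961992-162964599 on the minus strand, overlapping Ctps2 on the plus strand. Trpv5 (6:41652173-41680769) and its close paralog Trpv6 (6:41620624-41636405) are neighbours on the minus strand, so reads in shared sequence could be split or dropped in either. Slc8a1 (17:81373105-81738377), Trpm6 and Egf overlap other gene models too. How the counting treated strand, introns and shared reads is not given, and levels of these genes carry that uncertainty. The stretch around the start site (250 bases before to 50 after, RefSeq, GRCm38.p6) was in the reference table for every gene except Calb1. It is shown for S100g, Slc8a1 and Slc12a3, which were well below WT in KO distal cells, and for Atp2b1, which was closer to it. Capitals mark CACGTG, the core of the element that TFEB and TFE3 bind, or TATAAA, both searched on either strand.
S100g, chrX:162964550-162964849, minus strand: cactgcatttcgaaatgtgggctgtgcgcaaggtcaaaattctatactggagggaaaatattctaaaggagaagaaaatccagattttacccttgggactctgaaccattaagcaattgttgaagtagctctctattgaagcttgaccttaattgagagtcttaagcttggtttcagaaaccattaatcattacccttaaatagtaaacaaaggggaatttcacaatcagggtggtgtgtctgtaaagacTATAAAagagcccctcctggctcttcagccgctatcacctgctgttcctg
Slc8a1, chr17:81738338-81738637, minus strand: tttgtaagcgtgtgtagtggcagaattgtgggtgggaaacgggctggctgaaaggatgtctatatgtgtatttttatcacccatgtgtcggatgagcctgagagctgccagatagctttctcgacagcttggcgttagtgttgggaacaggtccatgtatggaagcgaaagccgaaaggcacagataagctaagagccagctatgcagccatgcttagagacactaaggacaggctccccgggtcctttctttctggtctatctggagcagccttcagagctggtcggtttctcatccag
Slc12a3, chr8:94328958-94329257, plus strand: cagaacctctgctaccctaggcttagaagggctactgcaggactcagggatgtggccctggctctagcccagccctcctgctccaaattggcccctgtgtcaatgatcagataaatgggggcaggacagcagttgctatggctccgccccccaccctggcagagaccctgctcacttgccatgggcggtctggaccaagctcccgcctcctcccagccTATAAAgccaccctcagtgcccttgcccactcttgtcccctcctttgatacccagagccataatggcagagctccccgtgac
Atp2b1, chr10:98914392-98914691, plus strand: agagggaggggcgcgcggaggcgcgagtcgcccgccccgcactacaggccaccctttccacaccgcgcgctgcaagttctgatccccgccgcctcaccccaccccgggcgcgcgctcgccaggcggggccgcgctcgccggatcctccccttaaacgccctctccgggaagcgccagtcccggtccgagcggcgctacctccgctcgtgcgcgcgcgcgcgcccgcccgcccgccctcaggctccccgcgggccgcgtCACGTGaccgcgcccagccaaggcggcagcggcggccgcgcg
CACGTG occurred in 7.15% of the 32851 promoter windows of the table and TATAAA in 13.6%. The table holds 12 windows for the 9 genes, with 2 each for Atp2b1, Pvalb and Egf. Among them CACGTG was found only in the Atp2b1 window shown and not in the other one (chr10:98914902-98915201), and TATAAA in those of S100g, Slc12a3 and Trpv5. In Slc12a3 it began at position -32 and in Trpv5 at position -43, counting the annotated start as 0. In S100g it began at position 0 itself. The windows of Slc8a1, Trpv6, Trpm6, Egf and Pvalb held neither run of letters.

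The matrices held 5991 KO barcodes with 149679281 UMIs and 5572 WT barcodes with 147390790 UMIs, and the libraries shared 1 barcode sequence. After filters, 4837 KO cells (median 18510 UMIs) and 4047 WT cells (median 20994 UMIs) remained. More than 20% mitochondrial UMIs had removed 11.6% of KO and 17.7% of WT barcodes. Levels below are sums over the cells of a class, given per 1000000 nuclear-encoded UMIs of that class (CPM). Flcn itself had 11.8 CPM (791 UMIs) in the 6 nephron classes of the KO library, against 13.5 CPM (1068 UMIs) in those of the WT library. Which part of Flcn was deleted is not given, so 3′ counts do not check the deletion. Cells were clustered without the 10 genes and named from other markers. The distal tubule-like class held 45 KO cells (0.930% of cells) and 86 WT cells (2.13%), with a median of 32714 UMIs per KO cell against 11383 per WT cell. All 8 distal markers used for the name (among them Emx1, Sall3, Tmem52b, Wnk4, Klhl3, Kl and Tfap2b) were detected in both libraries, at a summed 2165 CPM in KO and 3218 CPM in WT distal cells. The loop of Henle markers summed to 1224 CPM in KO and 4412 CPM in WT distal cells, with none of the 10 at 0 in either library. The 8 intercalated markers summed to 28.2 CPM in KO distal cells, where Atp6v1g3, Slc4a1, Dmrt2, Aqp6 and Hepacam2 were at 0, and to 146 CPM in WT distal cells, where none was. The 6 erythroid markers stood at 622 CPM in KO and 793 CPM in WT distal cells, and the 11 endothelial markers at 105 CPM in KO and 19.6 CPM in WT. Mitochondrial UMIs were 7.45% in KO and 5.31% in WT distal cells. The part these differences play in the ratios was not tested.

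Trpv5 and Slc12a3 had most of their UMIs in distal tubule-like and intercalated-like cells, whereas the pump and the exchanger were spread over the kidney. Trpv5 had 134 UMIs in the KO library, of which 52.2% fell in distal tubule-like and 38.8% in intercalated-like cells. In WT, 61.4% and 31.9% of its 389 UMIs lay in the same classes. Trpv5 was at 0 UMIs in KO loop of Henle, podocyte and early nephron cells. Slc12a3 had 407 UMIs in KO, 55.8% of them distal and 22.1% intercalated-like, against 3830 UMIs in WT, 35.9% distal and 59.1% intercalated-like. The intercalated-like cluster (9 KO and 28 WT cells) was named from Atp6v1g3, Slc4a9 and related markers, yet Slc12a3 and S100g were also among its 10 leading genes. It is therefore described beside the distal class, and its KO side rests on 9 cells.

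Trpv6 and Calb1 had their largest share of UMIs in ureteric bud and collecting duct cells. That class (112 KO and 242 WT cells) held 58.5% of 234 KO Trpv6 UMIs and 46.1% of 488 WT Trpv6 UMIs, and 88.8% of 6920 KO Calb1 UMIs and 64.1% of 18916 WT Calb1 UMIs. The Calb1 level in it was 1041 CPM in KO and 954 CPM in WT. In WT cells the order of Calb1 levels was intercalated-like (3143 CPM), collecting duct (954 CPM) and distal (877 CPM), with every other class at 10.1 CPM or less. In KO cells collecting duct (1041 CPM) stood above intercalated-like (567 CPM) and distal cells (208 CPM), with every other class at 5.40 CPM or less. The counting intervals of these 3 classes did not overlap within either library, but 1 of the 9 KO intercalated-like cells held 73.7% of their Calb1 UMIs, so the place of that class in the KO order is uncertain.

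S100g was highest in intercalated-like cells, at 5344 CPM in KO and 27937 CPM in WT, then in distal cells, at 3398 CPM in KO and 9922 CPM in WT, then in ureteric bud and collecting duct cells, at 436 CPM in KO and 652 CPM in WT. The other 9 classes were lower, at no more than 53.6 CPM in KO (proximal tubule) and 145 CPM in WT (immune cells). The collecting duct level came from few cells, 5 KO and 4 WT cells holding at least 50% of its UMIs, and in cluster 7, with 96 of its 112 KO and 217 of its 242 WT cells, S100g was at 43.0 CPM in KO and 67.5 CPM in WT, below proximal tubule. Slc8a1 was highest in intercalated-like cells, at 1389 CPM in KO, where 1 of 9 cells held 55.8% of the UMIs and the rank is uncertain, and 5030 CPM in WT. It reached 920 CPM in KO and 1441 CPM in WT ureteric bud and collecting duct cells, and 959 CPM in KO and 1315 CPM in WT stroma. Its lowest classes were proximal tubule (6.24 CPM in KO, 15.5 CPM in WT) and loop of Henle (7.87 CPM in KO, 20.4 CPM in WT). Atp2b1 was found in every class, from 182 CPM in podocytes to 1114 CPM in immune cells of the KO library, and from 198 CPM in nephron progenitors to 1023 CPM in immune cells of the WT library. Trpm6 had 18.4 CPM in KO and 47.3 CPM in WT distal cells, against 31.6 CPM in KO podocytes (103 UMIs, against 81 UMIs in WT podocytes, a ratio of 2.11) and 18.1 CPM in KO and 12.2 CPM in WT nephron progenitors. In intercalated-like cells, its highest WT class, Trpm6 was at 17.5 CPM in KO (6 UMIs) and 180 CPM in WT (193 UMIs). The ratio there was 0.0976 (0.0354 to 0.216), lower than in distal cells. Distal cells held 3.52% of the KO and 13.4% of the WT Trpm6 UMIs, and intercalated-like cells 0.704% in KO and 17.8% in WT. Egf was low everywhere, at 470 UMIs in the KO and 696 in the WT library. Nephron progenitors at 6.62 CPM and podocytes at 6.45 CPM were its highest classes in KO, with overlapping intervals, and podocytes at 25.0 CPM its highest in WT. Pvalb had 0 UMIs in the KO and 2 UMIs in the WT library. In distal cells its 0 counts allow up to 1.84 CPM in KO and 0.978 CPM in WT (3 counts).

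**Figure D1:**
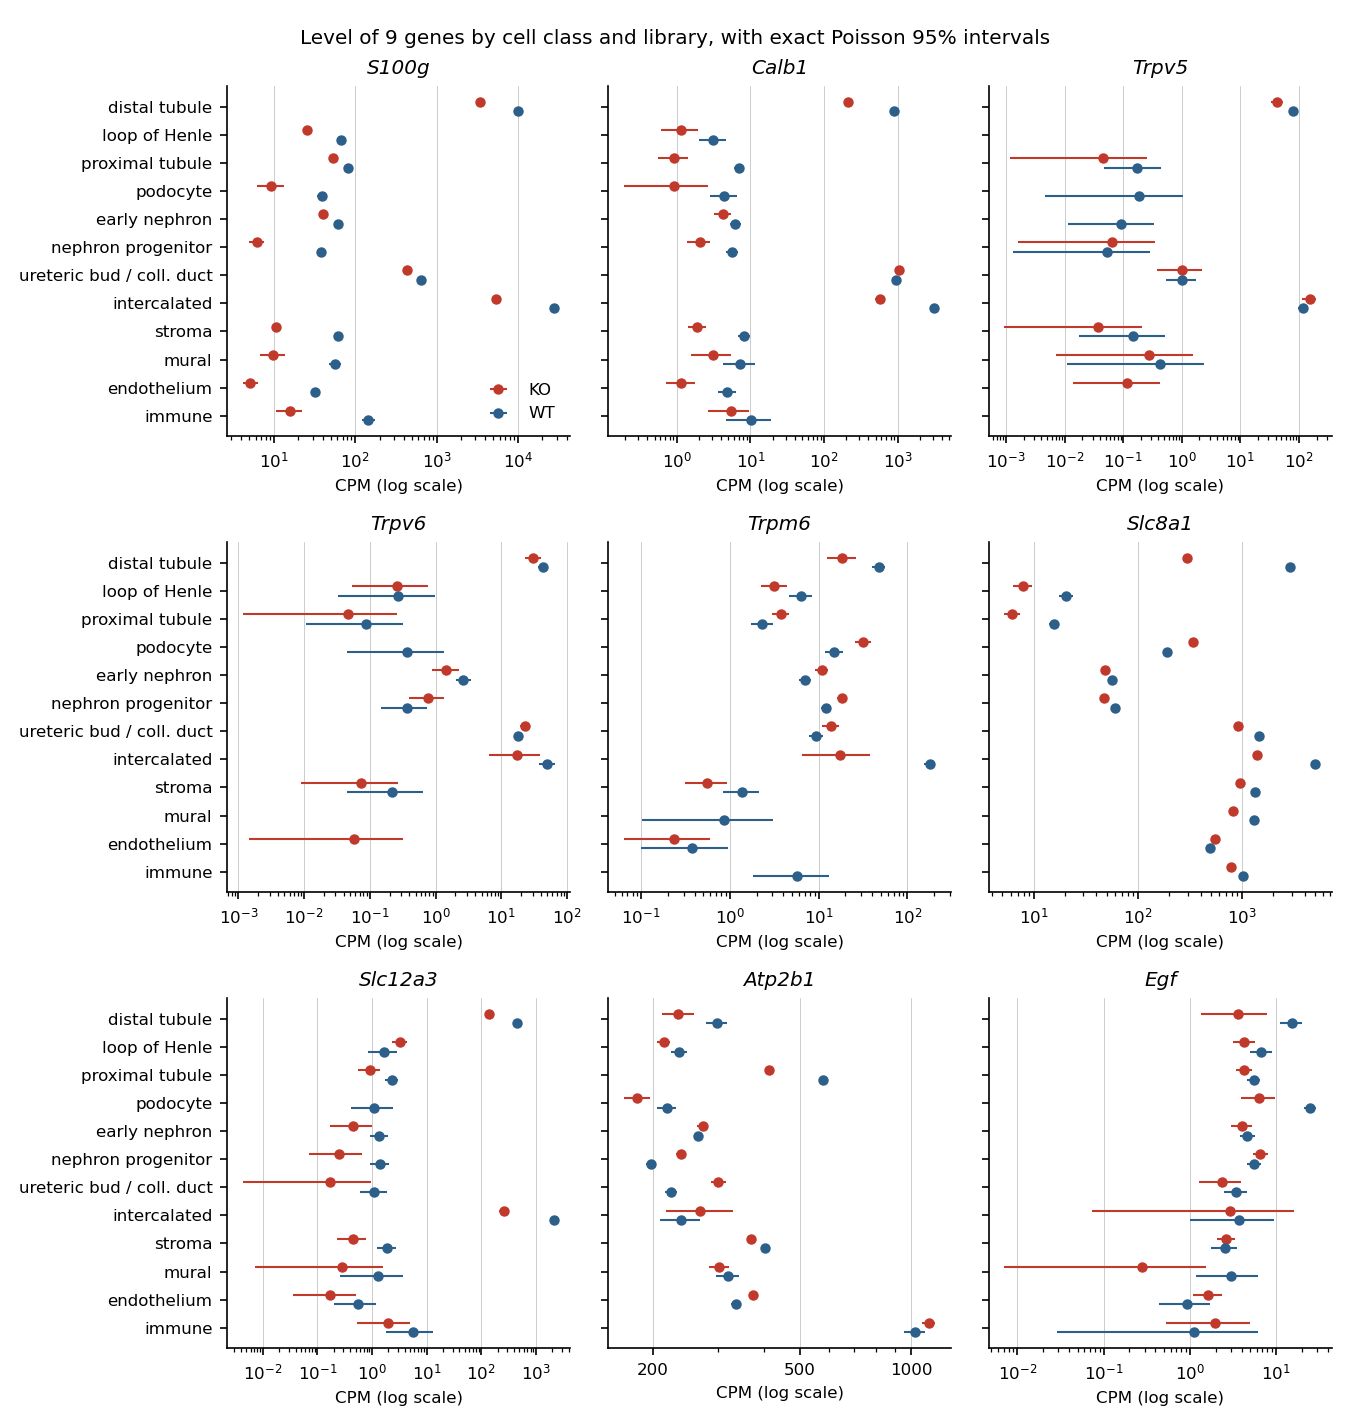
Level of 9 of the genes (Pvalb is left out) in 12 cell classes, in CPM on a log scale, with KO points in red above WT points in blue. Bars are exact Poisson 95% intervals, which cover counting error only, and a class at 0 UMIs has no point. S100g, Slc12a3 and Trpv5 stand highest in the distal and intercalated-like classes, and WT S100g points lie right of KO points in all 12 classes.

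In distal tubule-like cells 7 of the 9 genes with at least 50 UMIs were at least 1.5-fold lower in KO than in WT, 0 were at least 1.5-fold higher, and 2 lay between (Pvalb had no UMI to compare). Of the 9551 genes with as many UMIs in this class, 15.9% were at least 1.5-fold lower in KO and 12.3% at least 1.5-fold higher. The median log2 ratio of the 9 genes, with 0.5 UMI added to each sum, was -1.55, and that of all 9551 genes was -0.03. Those past 1.5-fold were both calbindins, the exchanger, Trpv5, Trpm6, Slc12a3 and Egf. The 2 between were Trpv6 and the pump Atp2b1. S100g, Calb1, Slc8a1 and Slc12a3 were at least 1.5-fold lower in KO under all 12 alternative settings, and Trpm6 under the 11 other than thinning, where it had too few UMIs to be counted, with S100g between 0.158 and 0.475. Trpv5 had a ratio of 0.705 (0.569 to 0.868), no longer past 1.5-fold, once intercalated-like cells were added. The direction of 2 genes turned under some of them, Trpv6 to 1.37 with a lower mitochondrial limit (and 1.72 after thinning, where it had too few UMIs to be counted, with an interval of 0.230 to 12.8), and Atp2b1 to 1.11 with no doublet removal, 1.15 at Leiden resolution 2 and 1.16 with a higher UMI minimum.

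Among the calcium-binding proteins, S100g had 5548 UMIs (3398 CPM) in KO distal cells and 30437 UMIs (9922 CPM) in WT distal cells, a KO over WT ratio of 0.343 (95% interval 0.333 to 0.352). Per cell, S100g ran from 0 through a median of 1828 CPM to 52727 CPM in KO, and from 0 through a median of 9038 CPM to 145171 CPM in WT. The 2 sets of cells overlapped widely. Calb1 had 340 UMIs (208 CPM) in KO and 2691 UMIs (877 CPM) in WT distal cells, a ratio of 0.237 (0.211 to 0.266). The median KO distal cell had 0 Calb1 UMIs, against 592 CPM in the median WT cell, with maxima of 3456 CPM in KO and 17745 CPM in WT.

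For the calcium exit step, Slc8a1 showed the lowest ratio of the 9 genes, though not with a 10% mitochondrial limit or at least 2000 UMIs per cell, where Slc12a3 was lower (0.0435 and 0.119, against 0.173 and 0.162 for Slc8a1), nor with no doublet removal (Egf 0.204, Slc12a3 0.215, Slc8a1 0.222) or at Leiden resolution 2 (Egf 0.203, Slc8a1 0.210). It had 486 UMIs (298 CPM) in KO and 8830 UMIs (2878 CPM) in WT distal cells, a ratio of 0.103 (0.0942 to 0.113). The highest KO cell had 6369 CPM and the highest WT cell 117037 CPM, with medians of 59.9 CPM in KO and 175 CPM in WT, so the class totals differed more than the medians did. A single cell carried 19.5% of the KO and 23.8% of the WT Slc8a1 UMIs. The other exit route, Atp2b1, had 383 UMIs (235 CPM) in KO and 913 UMIs (298 CPM) in WT distal cells, a ratio of 0.788 (0.698 to 0.889). Per-cell medians of Atp2b1 were 179 CPM in KO and 210 CPM in WT.

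The entry channels were sparse. Trpv5 had 70 UMIs (42.9 CPM) in KO and 239 UMIs (77.9 CPM) in WT distal cells, a ratio of 0.550 (0.415 to 0.721), and a UMI in 12 of 45 KO and 25 of 86 WT cells. A single cell held 35 of the KO and 63 of the WT Trpv5 UMIs. Trpv6 had 50 UMIs (30.6 CPM) in KO and 134 UMIs (43.7 CPM) in WT, a ratio of 0.701 (0.496 to 0.977). The magnesium channel Trpm6 had 30 UMIs (18.4 CPM) in KO and 145 UMIs (47.3 CPM) in WT, a ratio of 0.389 (0.253 to 0.579), with its top cell holding 6 of the KO and 44 of the WT UMIs. Egf had 6 UMIs (3.68 CPM) in KO and 47 UMIs (15.3 CPM) in WT, of which 1 WT cell gave 51.1%, a ratio of 0.240 (0.0838 to 0.562). Slc12a3 had 227 UMIs (139 CPM) in KO and 1375 UMIs (448 CPM) in WT distal cells, a ratio of 0.310 (0.268 to 0.357), and a UMI in 11 of 45 KO and 42 of 86 WT cells. Its ratio was 0.0435 with a 10% mitochondrial limit and 0.119 with at least 2000 UMIs per cell, and lay between 0.0435 and 0.442 over all 12 alternatives.

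**Figure D2:**
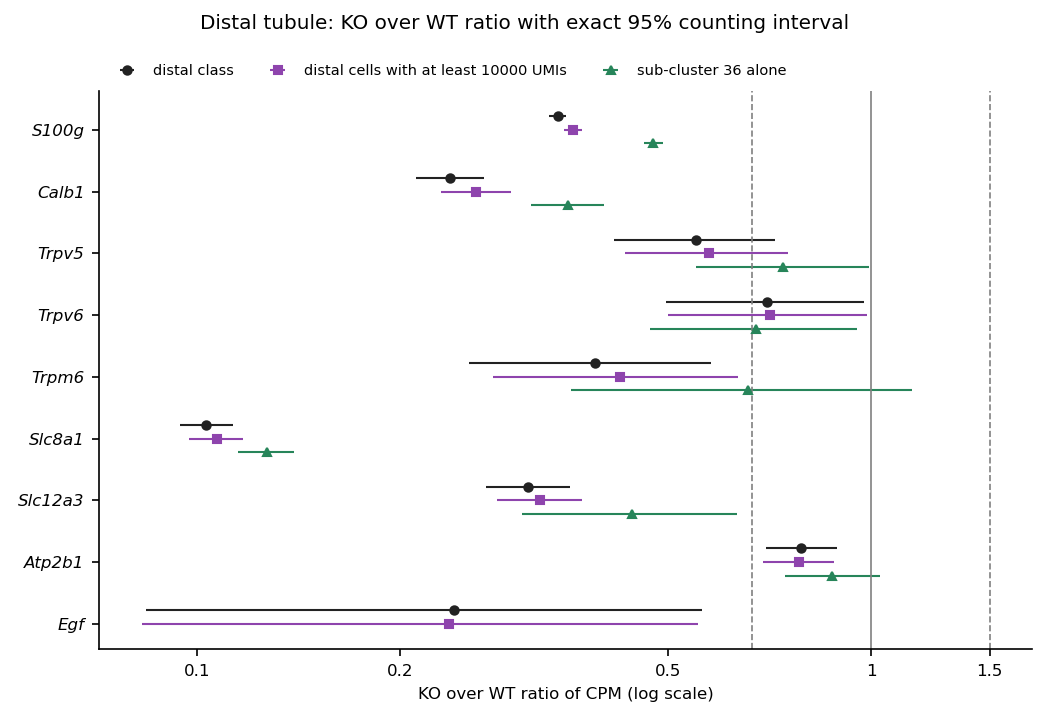
KO over WT ratio of CPM on a log scale for 9 genes in the whole distal tubule-like class, in its cells with at least 10000 UMIs and in sub-cluster 36 alone, with exact 95% intervals for counting error. The solid line is a ratio of 1 and dashed lines are 1.5-fold in either direction. Slc8a1 lies lowest in all 3 sets (0.103, 0.107 and 0.127) and Atp2b1 nearest to 1 (0.788, 0.782 and 0.876). Egf is not drawn for sub-cluster 36, where it had under 50 UMIs.

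The class joined 4 sub-clusters that the libraries filled unevenly. Sub-cluster 23, with Slc12a3 and Tmem52b among its leading genes, held 3 KO and 32 WT cells. Sub-cluster 34, with 7 KO and 27 WT cells, had a median of only 2316 UMIs per KO and 1614 UMIs per WT cell, and S100g in it was at 16189 CPM in KO and 68065 CPM in WT, a ratio of 0.238 (0.208 to 0.271). Sub-cluster 35, led by the metallothionein Mt1, held 13 KO cells and 0 WT cells. Sub-cluster 36, led by Rhcg, S100g and the sodium channel subunits Scnn1g and Scnn1b, held 22 KO and 27 WT cells and was the only one with at least 20 cells of each. Scnn1g is also among the markers used to name ureteric bud and collecting duct. Which segment the cells of sub-cluster 36 come from was not tested. Within sub-cluster 36, S100g was at 5042 CPM in KO and 10606 CPM in WT, a ratio of 0.475 (0.460 to 0.491). Calb1 was at 335 CPM in KO and 942 CPM in WT, a ratio of 0.355 (0.313 to 0.402). Slc8a1 was at 493 CPM in KO and 3894 CPM in WT, a ratio of 0.127 (0.115 to 0.139), and here its per-cell medians were 506 CPM in KO and 4435 CPM in WT. Medians per cell for S100g were 1994 CPM in KO and 6773 CPM in WT, and for Calb1 134 CPM in KO and 1265 CPM in WT.

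Distal markers summed to 1541 CPM in KO and 2503 CPM in WT cells of sub-cluster 36, loop of Henle markers to 250 CPM in KO and 408 CPM in WT, erythroid markers to 1092 CPM in KO and 14.2 CPM in WT and endothelial markers to 167 CPM in KO and 23.3 CPM in WT, and their part in these ratios was not tested. The other genes had higher ratios than Slc8a1 there. Trpm6 had a ratio of 0.657 (0.358 to 1.15) from 18 KO and 46 WT UMIs. Trpv5 had a ratio of 0.741 (0.549 to 0.992), no longer past 1.5-fold, with 68 KO and 154 WT UMIs. Trpv6 had a ratio of 0.674 (0.470 to 0.954) and Atp2b1 one of 0.876 (0.746 to 1.03). Slc12a3 was at 42.3 CPM in KO and 95.6 CPM in WT, a ratio of 0.442 (0.303 to 0.633). Altogether 5 of 8 genes with at least 50 UMIs were at least 1.5-fold lower in KO, where 15.4% of all 7647 genes were, and 0 were at least 1.5-fold higher, where 15.7% were. Sub-cluster 23 gave another picture for NCC, with Slc12a3 at 864 CPM in its 3 KO cells and 822 CPM in its 32 WT cells (95 and 1197 UMIs), a ratio of 1.05, but 1 of the 3 KO cells held all 95 UMIs. Slc8a1 there had 13 KO and 2790 WT UMIs, a ratio of 0.0617 (0.0328 to 0.106), and Trpv5 had 0 KO and 85 WT UMIs, but 1 WT cell held 75.4% of the Slc8a1 and 74.1% of the Trpv5 UMIs. The per-cell median of Slc8a1 there was higher in KO, at 145 CPM in KO and 60.7 CPM in WT. The 13 KO cells of sub-cluster 35 held little of the calcium genes, with S100g at 366 CPM, Calb1 at 46.2 CPM and Slc8a1 at 25.6 CPM, while Slc12a3 was at 159 CPM and Atp2b1 at 190 CPM.

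**Figure D3:**
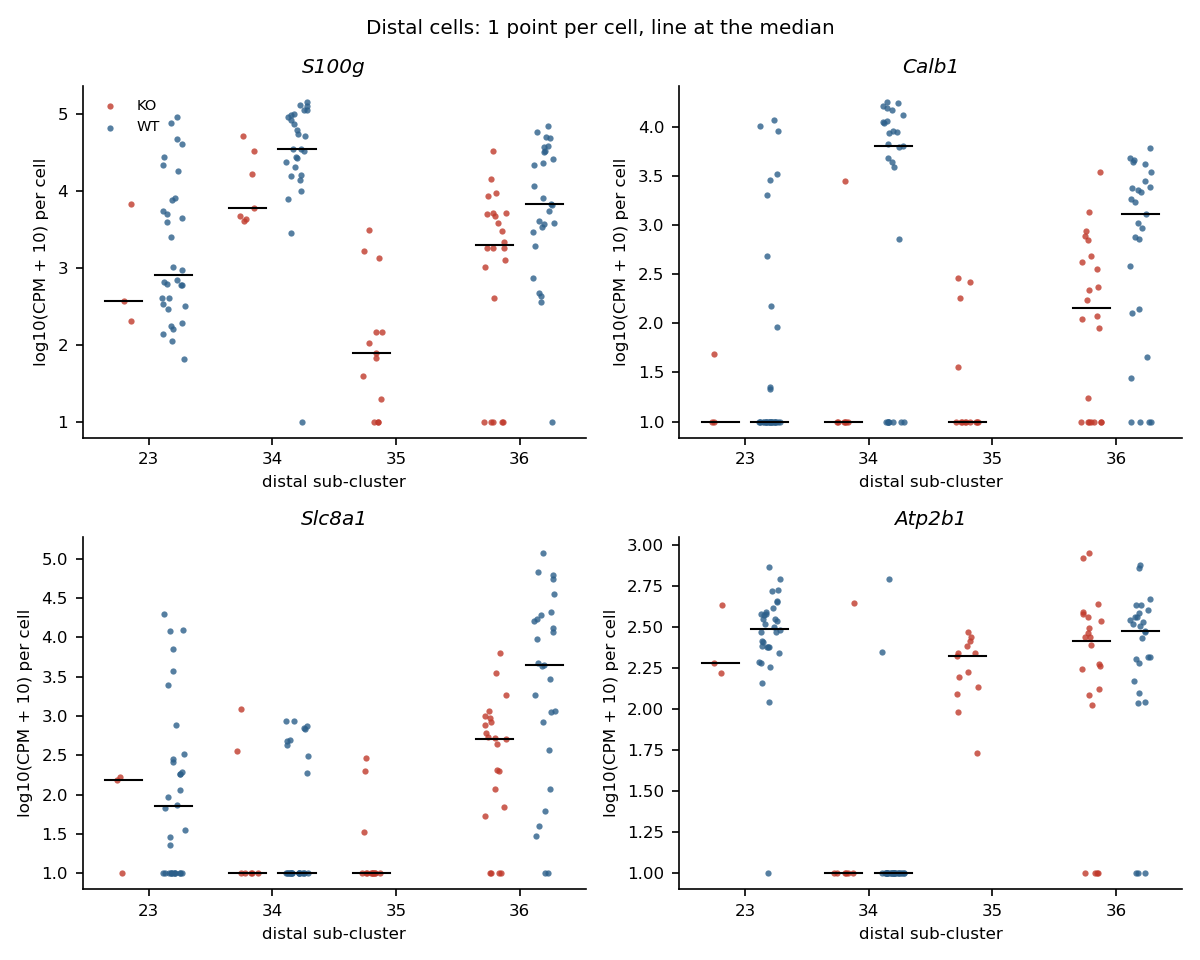
Level per cell, as log10(CPM + 10), of S100g, Calb1, Slc8a1 and Atp2b1 in the 4 distal sub-clusters, with KO cells in red at the left of WT cells in blue, 1 point per cell and a line at the median. Sub-cluster 35 has 13 KO and 0 WT cells. In sub-cluster 36 the KO and WT cells overlap for all 4 genes, and the medians of S100g, Calb1 and Slc8a1 are lower in KO (for Slc8a1, 506 CPM in KO and 4435 CPM in WT), while those of Atp2b1 lie close (250 CPM in KO and 288 CPM in WT).

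Depth differed between the distal cells of the libraries, so the deeper cells were also compared alone. With at least 10000 UMIs, 31 KO cells (median 41751 UMIs) and 45 WT cells (median 42083 UMIs) remained. S100g then stood at 3282 CPM in KO and 9098 CPM in WT, a ratio of 0.361, Calb1 at a ratio of 0.259 (0.230 to 0.292) and Slc8a1 at one of 0.107 (0.0970 to 0.117). In these cells 7 of 9 genes were at least 1.5-fold lower in KO, where 16.5% of 9479 genes were, and 0 were at least 1.5-fold higher, where 12.5% were. Every one of the 12 KO and 21 WT cells with a Trpv5 UMI also had a Slc8a1 UMI, and 11 of the 12 KO and 20 of the 21 WT cells had a Calb1 UMI. Among cells with a Slc12a3 UMI, 4 of 10 KO and 15 of 21 WT cells had a Trpv5 UMI, and 7 of 10 KO and 19 of 21 WT cells had a Slc8a1 UMI. Of the deep cells with an S100g UMI, 10 of 28 KO and 21 of 45 WT cells had a Slc12a3 UMI.

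The collecting duct, into which the distal nephron drains, showed other ratios. Six2-Cre is not active in the ureteric lineage, but whether every cell of this marker-named class belongs to it was not tested. In its largest cluster, cluster 7, S100g was at only 43.0 CPM in KO and 67.5 CPM in WT. In the whole class 0 of 7 genes with at least 50 UMIs were at least 1.5-fold higher in KO, where 4.93% of 13404 genes were. At least 1.5-fold lower was 1 gene, where 469 genes (3.50%) were. That gene was Slc8a1, at 920 CPM in KO and 1441 CPM in WT, a ratio of 0.638 (0.619 to 0.658). S100g had 436 CPM in KO and 652 CPM in WT, a ratio of 0.670 (0.641 to 0.700), and a single cell gave 519 of the 2577 KO and 1661 of the 8287 WT UMIs. Calb1 (ratio 1.09, 1.06 to 1.13), Trpv6 (23.2 CPM in KO and 17.7 CPM in WT, ratio 1.31, 1.05 to 1.63), Trpm6 (ratio 1.47, 1.09 to 1.96) and Atp2b1 (301 CPM in KO and 225 CPM in WT, ratio 1.34, 1.26 to 1.42) were higher in KO by less than 1.5-fold. Whether the intercalated-like cluster is of ureteric or nephron lineage was not tested. Its WT Slc12a3 (2109 CPM) and S100g (27937 CPM) stood above the WT distal levels (448 CPM and 9922 CPM). In intercalated-like cells 6 of 8 genes were at least 1.5-fold lower in KO, where 14.3% of 5419 genes were, and 0 at least 1.5-fold higher, where 18.4% were. Slc12a3 was at 263 CPM in KO and 2109 CPM in WT there, a ratio of 0.125 (0.0999 to 0.154), and 1 of the 9 KO cells held all 90 KO UMIs. Trpv5 was at 152 CPM in KO and 116 CPM in WT, a ratio of 1.32 (0.933 to 1.83), from 52 KO and 124 WT UMIs.

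In nephron classes before the distal tubule the genes did not all differ in one direction. Loop of Henle cells had 4 of 5 genes at least 1.5-fold lower in KO, where 13.5% of 12484 genes were, and 0 at least 1.5-fold higher, where 10.9% were, with Slc8a1 at 7.87 CPM in KO and 20.4 CPM in WT (ratio 0.386, 0.294 to 0.505). Proximal tubule cells had 4 of 7 lower, where 9.24% of 14493 genes were, and 1 higher, where 10.1% were. Lower were S100g, Calb1, Slc8a1 and Slc12a3. Calb1 was low there (0.918 CPM in KO, 6.99 CPM in WT), against 1.87 CPM and 6.89 CPM in pooled stroma, mural, endothelial and immune cells. Slc12a3 was low too (0.918 CPM in KO, 2.32 CPM in WT), against 0.402 CPM and 1.43 CPM in those cells. How far these 2 counts are background was not tested. The gene higher was Trpm6, at 3.72 CPM in KO and 2.32 CPM in WT (81 and 53 UMIs), a ratio of 1.60 (1.12 to 2.31). Atp2b1, abundant in proximal tubule, was at 413 CPM in KO and 576 CPM in WT, a ratio of 0.716 (0.697 to 0.736). In podocytes, Slc8a1 was at 338 CPM in KO and 191 CPM in WT, a ratio of 1.77 (1.62 to 1.93), and Trpm6 at a ratio of 2.11 (1.56 to 2.86). These were the 2 genes of 5 at least 1.5-fold higher in KO podocytes, where 8.78% of 10783 genes were, and 2 were at least 1.5-fold lower, S100g and Egf, where 6.19% were. Egf had 21 KO and 135 WT UMIs in podocytes, a ratio of 0.258 (0.155 to 0.410), and 1 WT cell gave 21.5% of its UMIs. Early nephron cells had Trpm6 at 10.9 CPM in KO and 7.02 CPM in WT, a ratio of 1.55 (1.23 to 1.96), and nephron progenitors 18.1 CPM in KO and 12.2 CPM in WT, a ratio of 1.48 (1.24 to 1.77). Trpm6 was the 1 of 7 genes at least 1.5-fold higher in KO early nephron cells, where 4.07% of 15096 genes were, and S100g and Trpv6 were the 2 lower, where 4.42% were. In nephron progenitors 0 of 6 genes were at least 1.5-fold higher in KO, where 4.82% of 14751 genes were, and S100g and Calb1 were the 2 lower, where 5.04% were. S100g there (6.17 CPM in KO, 38.0 CPM in WT) was below its pooled stroma, mural, endothelial and immune level (8.97 CPM and 53.0 CPM). Calb1 there (2.04 CPM in KO, 5.69 CPM in WT) lay near its own pooled level (1.87 CPM and 6.89 CPM). S100g in podocytes (9.21 CPM in KO, 38.7 CPM in WT) was near or below its pooled level too. None of these is read as a difference in expression. The Trpm6 ratio was thus above 1 in podocytes, early nephron cells, progenitors, proximal tubule and collecting duct, and below 1 in distal tubule, loop of Henle and intercalated-like cells. Of the classes outside the nephron, stroma had Slc8a1 at 959 CPM in KO and 1315 CPM in WT (ratio 0.729), mural cells at 826 CPM in KO and 1314 CPM in WT (0.628), immune cells at 775 CPM in KO and 1012 CPM in WT (0.766) and endothelium at 547 CPM in KO and 489 CPM in WT (1.12). In these 4 classes 0 of the genes were at least 1.5-fold higher in KO, where 4.88% of all genes were in stroma, 5.92% in mural cells, 3.54% in endothelium and 7.13% in immune cells. At least 1.5-fold lower were S100g and Calb1 in stroma (2 of 5, where 4.24% were), S100g and Slc8a1 in mural cells (2 of 3, where 5.01% were), S100g and Calb1 in endothelium (2 of 4, where 2.71% were) and S100g in immune cells (1 of 3, where 7.41% were), and the S100g and Calb1 levels of these cells are taken up next.

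S100g was also counted in cells that should lack it. Stroma, mural, endothelial and immune cells together had 447 S100g UMIs (8.97 CPM) in 2555 KO cells and 1478 UMIs (53.0 CPM) in 1321 WT cells, a ratio of 0.169 (0.152 to 0.188). The ratio was 0.173 in stroma, 0.172 in mural cells, 0.159 in endothelium, 0.108 in immune cells and 0.163 in nephron progenitors, and 0.165 (0.162 to 0.168) over all cells of the libraries. As a share of the same library's all-cell level of 96.1 CPM in KO and 582 CPM in WT, the pooled outside level was 9.34% in KO and 9.10% in WT. It was 11.2% in KO and 10.7% in WT stroma, 10.2% in KO and 9.79% in WT mural cells, 5.37% in KO and 5.59% in WT endothelium, and 6.42% in KO and 6.52% in WT nephron progenitors. These shares differed between the libraries by less than 1 percentage point. Those of podocytes (9.58% in KO, 6.65% in WT) and immune cells (16.3% in KO, 25.0% in WT) differed by more. Among cells of the 4 outside classes, 0 KO and 6 WT cells had 10 or more S100g UMIs, against 27 of 45 KO and 72 of 86 WT distal cells.

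The share of cells with an S100g UMI followed the same pattern. It was 15.6% (Clopper-Pearson 14.2 to 17.0) of KO and 60.6% (57.9 to 63.3) of WT outside cells, at median depths of 14960 UMIs in KO and 16057 UMIs in WT, and 82.2% (67.9 to 92.0) of KO and 97.7% (91.9 to 99.7) of WT distal cells. After thinning every cell to 3000 UMIs, which left out shallower cells, it was 3.42% of 2516 KO and 18.5% of 1309 WT outside cells, against 69.7% of 33 KO and 85.7% of 56 WT distal cells. A single S100g UMI therefore did not tell distal from outside cells in the WT library. Podocytes (9.21 CPM in KO, 38.7 CPM in WT) and progenitors (6.17 CPM in KO, 38.0 CPM in WT) lay below the outside level, or in KO podocytes within its interval (8.16 to 9.85 CPM), and are not read as expression of the gene there. Loop of Henle (25.7 CPM in KO, 67.1 CPM in WT) and proximal tubule (53.6 CPM in KO, 80.9 CPM in WT) lay above this pooled outside level in both libraries. Single outside classes varied, however. In WT, immune cells (145 CPM) stood above both tubule classes, and stroma (62.4 CPM) was close to loop of Henle. The highest KO outside class was immune cells, at 15.7 CPM. Whether loop of Henle and proximal tubule cells express S100g was not tested. Per Calb1 UMI, S100g had 4.81 UMIs in KO and 7.70 UMIs in WT outside cells, between 16.3 in KO and 11.3 in WT distal cells and 0.419 in KO and 0.683 in WT collecting duct cells. Calb1 in outside cells was at 1.87 CPM in KO and 6.89 CPM in WT, a ratio of 0.271 (0.209 to 0.349). Slc12a3 was at 0.402 CPM in KO and 1.43 CPM in WT, a ratio of 0.280 (0.155 to 0.490). As a share of the all-cell level, outside Calb1 was 3.54% in KO and 4.71% in WT. Outside Slc12a3 was 12.9% in KO (20 UMIs) and 4.85% in WT (40 UMIs), so its shares differed more than those of pooled S100g.

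**Figure D4:**
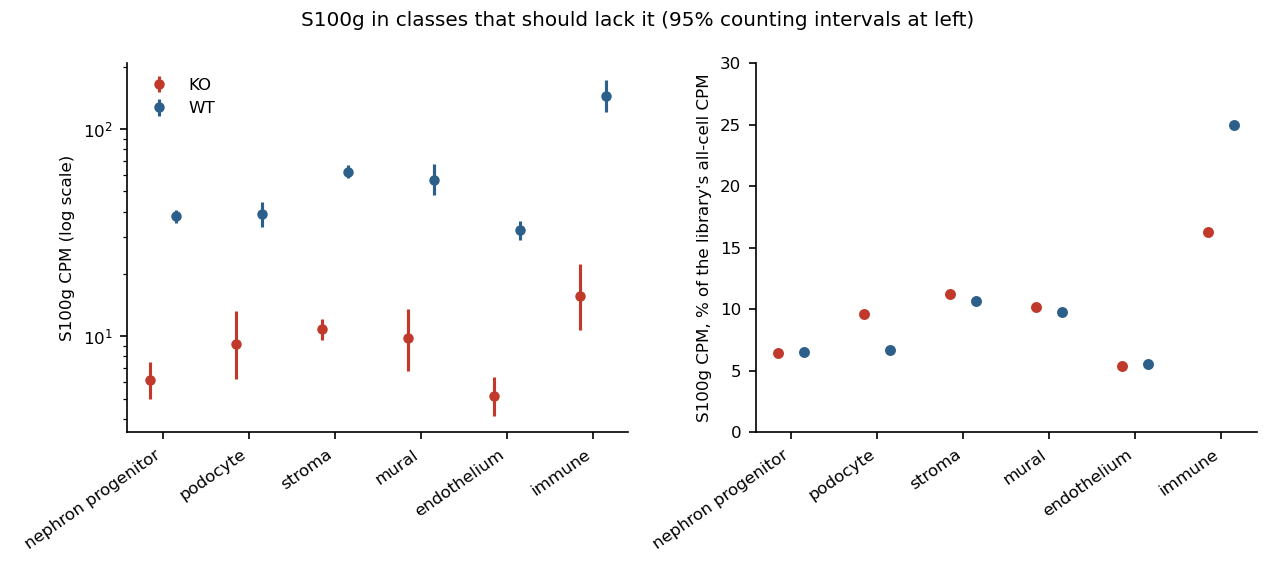
S100g in 6 classes that should lack it, with KO in red at the left of WT in blue. The left panel gives CPM on a log scale with exact Poisson 95% intervals, and the right panel the same level as a percent of the library's all-cell S100g level. WT is higher than KO in every class at the left (stroma 10.8 CPM in KO, 62.4 CPM in WT), and the points of each class lie near each other at the right except for podocytes (9.58% in KO, 6.65% in WT) and immune cells.

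Barcodes that the filters removed carried the same contrast. The 951 KO barcodes removed before doublet calls had 355 S100g UMIs (148 CPM), and the 1385 WT ones 9811 UMIs (2937 CPM). Among those over 20% mitochondrial UMIs, Slc8a1 was at 561 CPM in KO and 2401 CPM in WT, and Slc12a3 at 67.0 CPM in KO and 546 CPM in WT. Of the removed barcodes, 6 KO and 122 WT ones had at least 5 S100g UMIs, and what cells these had been was not tested.

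Other genes of the same pathways in distal tubule-like cells were described from 3 lists. Of 12 genes that sense, control or aid calcium transport, 8 had at least 50 UMIs, 4 of them at least 1.5-fold lower in KO and 3 at least 1.5-fold higher (median log2 ratio -0.90), where 15.9% of the 9551 genes of the class were lower and 12.3% higher. Lower were Pth1r, the parathyroid hormone receptor, at 55.1 CPM in KO and 388 CPM in WT (ratio 0.142, 0.114 to 0.176), Kl, the FGF23 co-receptor klotho, at 68.6 CPM in KO and 192 CPM in WT (0.357, 0.289 to 0.438), and the calcium pump gene Atp2b4 at 30.6 CPM in KO and 82.1 CPM in WT (0.373, 0.270 to 0.507). Vdr, the vitamin D receptor, was the fourth, with a ratio of 0.378. Kl, and in the sodium chloride list Wnk4 and Klhl3, were also among the 8 markers that named the class. Higher were Anxa2 and S100a10, whose products form a complex that brings TRPV5 and TRPV6 to the membrane, and Rab11a, a GTPase of recycling vesicles. Anxa2 had 97.4 CPM in KO and 39.1 CPM in WT (2.49, 1.95 to 3.18), Rab11a 409 CPM in KO and 235 CPM in WT (1.74, 1.57 to 1.94) and S100a10 93.7 CPM in KO and 62.3 CPM in WT (1.51, 1.21 to 1.87). Within sub-cluster 36 the same 7 genes lay past 1.5-fold in the same directions, with Pth1r at 0.153 (0.0712 to 0.291), Vdr at 0.317 (0.211 to 0.461) and S100a10 at 4.09 (2.88 to 5.89). They were all the listed genes with at least 50 UMIs there, as Casr had 4 KO and 13 WT UMIs. Of all 7647 genes in sub-cluster 36, 15.4% were at least 1.5-fold lower in KO and 15.7% at least 1.5-fold higher. Erythroid and endothelial markers were higher in its KO than in its WT cells, as given above. Their part in the sub-cluster 36 ratios of all 3 lists was not tested, nor how far single cells carried these ratios.

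For magnesium, 11 of 15 listed genes had at least 50 UMIs, 5 at least 1.5-fold lower in KO, where 15.9% of all 9551 genes were, and 1 higher, where 12.3% were (median -0.52). The 3 lowest were claudins of the paracellular route, Cldn16 at 11.0 CPM in KO and 88.3 CPM in WT (0.125), Cldn10 at 33.7 CPM in KO and 97.1 CPM in WT (0.347) and Cldn19 at 48.4 CPM in KO and 100 CPM in WT (0.484). Cldn16 and Cldn19 are made chiefly in the thick ascending limb, and Cldn19 is 1 of the loop of Henle markers whose sum differed above. In sub-cluster 36 Cldn19 was at 50.9 CPM in KO and 45.2 CPM in WT, a ratio of 1.13 (0.762 to 1.65). Cldn16 (2 KO and 3 WT UMIs) and Cldn10 (7 KO and 6 WT UMIs) had under 50 UMIs there. Of 9 listed genes with enough UMIs in sub-cluster 36, 3 were at least 1.5-fold lower in KO, where 15.4% of all 7647 genes were. Another 2 were at least 1.5-fold higher, where 15.7% were. The 3 highest were Trpm7, the ubiquitous relative of Trpm6, at 1276 CPM in KO and 682 CPM in WT (1.87, 1.76 to 1.99), Fxyd2, a sodium pump subunit, at 3637 CPM in KO and 2697 CPM in WT (1.35) and Pcbd1 at 149 CPM in KO and 147 CPM in WT (1.02). Fxyd2 in sub-cluster 36 was at 1472 CPM in KO and 223 CPM in WT, a ratio of 6.59 (5.85 to 7.43).

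All 18 listed genes of distal sodium chloride transport had at least 50 UMIs, 5 at least 1.5-fold lower in KO, where 15.9% of all 9551 genes were, and 3 higher, where 12.3% were, with a median log2 ratio of -0.03, equal to that of all genes. Among the lowest were Hsd11b2, the enzyme that keeps glucocorticoids off the mineralocorticoid receptor, at 34.3 CPM in KO and 110 CPM in WT (0.313, 0.232 to 0.417), and the kinase gene Wnk1 at 485 CPM in KO and 999 CPM in WT (0.485). Highest were Scnn1a, the alpha subunit of the epithelial sodium channel, at 201 CPM in KO and 77.9 CPM in WT (2.58, 2.18 to 3.06), and the kinase gene Sgk1 at 435 CPM in KO and 185 CPM in WT (2.35). In sub-cluster 36 Hsd11b2 had a ratio of 0.291 (0.213 to 0.389) and Scnn1a one of 3.49 (2.64 to 4.64), while Wnk1 was at 0.808 (0.622 to 1.04).

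**Figure D5:**
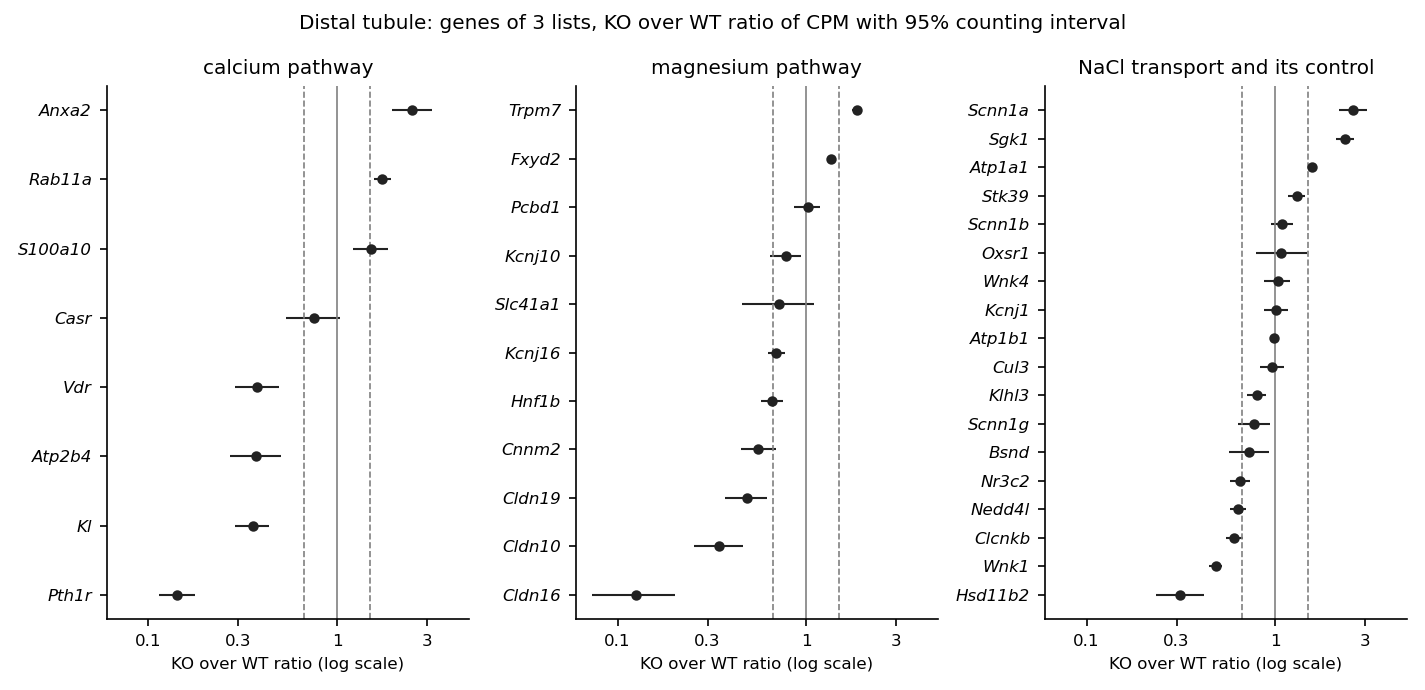
KO over WT ratio of CPM on a log scale in distal tubule-like cells for the genes of 3 lists with at least 50 UMIs (8 of the calcium list, 11 of the magnesium list, 18 of the sodium chloride list), ordered by ratio, with exact 95% intervals for counting error. Solid lines are a ratio of 1 and dashed lines 1.5-fold. Pth1r and Cldn16 stand lowest (0.142 and 0.125), and Scnn1a and Anxa2 highest (2.58 and 2.49).

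Across 66 profiles (clusters of at least 20 cells in 1 library, as log2 of CPM + 10), the genes most like each of the 10 were found by Pearson correlation, leaving out Pvalb, which reached 20 CPM in no profile. Calb1 was most like Scnn1g (r = 0.921), Cldn8 and Scnn1b, and Trpv6 most like Scnn1b (0.952), Aqp3 and Kel. S100g was most like Emx1 (0.912), Defb1 and Tmem52b, of which Emx1 and Tmem52b are markers that named the distal class. Slc12a3 was most like Gabrp (0.939), Mymx and Defb1, and Trpv5 most like Atp12a (0.878), Gcgr and Oxgr1. The likeness was lower for Slc8a1 (Tmtc1, 0.810), Atp2b1 (Nfkbiz, 0.791), Trpm6 (Tox3, 0.755) and Egf (Fcsk, 0.647). Profiles of 1 library share its depth and its free RNA, so these values are a description with no test.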

How the data were processed

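The deposited matrices hold counts of unique molecular identifiers per gene and cell barcode, as filtered barcodes, and were written by Cell Ranger 7.1.0 for the KO and 7.0.0 for the WT library, per the file headers. The libraries used Chromium Single Cell 3′ version 2 chemistry, per the labels' protocols. The submitters' processing notes name bcl2fastq 2.20.0, STAR 2.7.2a and the mouse build GRCm38. Neither the annotation nor the treatment of introns and strand is given in the sources used here. Both libraries passed through different software versions, and this difference cannot be told apart from genotype.

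The 10 genes, the marker lists and the pathway lists were chosen with earlier results of these data known. Barcodes were kept from 1000 UMIs and 500 genes upward, and up to 20% mitochondrial UMIs. Scrublet's own threshold called 2 KO and 3 WT barcodes, under 0.5%, so the highest-scoring barcodes up to an expected share were removed instead, 203 KO and 140 WT. Cells of both libraries were clustered together without batch correction (scanpy 1.11.5, Leiden with igraph 0.11.9 at resolution 1, 2000 variable genes without the 10 genes, 40 principal components, 20 neighbours). Clusters with a close second marker list were split at resolution 0.5, and clusters were named from the marker lists. Scaling, the split and the naming thresholds were settled over 4 set-ups after cluster tables had been seen, with earlier ratios for these genes known. Class names are rebuilt from markers and mean "X-like".

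UMIs were summed per class and library and divided by nuclear-encoded UMIs. Levels have exact Poisson, shares of cells exact Clopper-Pearson and ratios exact conditional binomial 95% intervals, which cover counting error only. With 1 library per genotype no test was run. A gene needed 50 UMIs over both libraries to be counted, and 1.5-fold in either direction was the size used for counts. The ratio calculation was checked on simulated Poisson sums. These hold no spread between cells, so the check shows only that the intervals were computed as meant for counting error. Likeness used the 3 genes with the highest Pearson correlation, other than gene models and ribosomal and mitochondrial genes, and the 3 highest and 3 lowest genes of each pathway list were named, except 2 that are not reported here. Sub-clusters, Vdr and the genes of single-cell shares were described after their values were seen. Alternatives varied the filters, doublet removal, clustering, scaling (TMM, edgeR 4.0.16), averaging and depth (thinning to 3000 UMIs). Another 3 were chosen after seeing the data. Python 3.11.15, numpy 2.4.6, pandas 2.3.3, scipy 1.17.1, matplotlib 3.10.9 and R 4.3.3 were used. Promoter sequences were read from a RefSeq table of GRCm38.p6.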

Additional observations from a re-analysis of the deposited data

Results flagged for a closer look

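The KO over WT ratio of 2 genes lay past 1.5-fold in opposite directions in different cell classes of the same libraries, and the difference between classes was not tested, since there is 1 library per genotype. The Trpm6 ratio was 2.11 in podocytes and 0.389 in distal tubule. The Slc8a1 ratio was 1.77 in podocytes, against 0.103 in distal tubule, 0.386 in loop of Henle, 0.403 in proximal tubule, 0.638 in ureteric bud and collecting duct and 0.628 in mural cells. In podocytes the highest cell held 11.7% of the KO and 13.6% of the WT Trpm6 UMIs, and 8.64% of the KO and 3.69% of the WT Slc8a1 UMIs. For Slc8a1 the highest cell held 25.6% in KO and 22.7% in WT loop of Henle. It held 16.9% in KO and 18.6% in WT proximal tubule. Both classes were the lowest for Slc8a1, and how far their counts are background was not tested.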

How the results depend on the processing

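The median KO over WT ratio of the genes in distal tubule was 0.343, and it was below 1 under all 12 alternatives run. It was 0.260 with a mitochondrial limit of 10%, 0.193 with at least 2000 UMIs per cell, 0.309 with no doublet removal, 0.276 at Leiden resolution 0.5, 0.321 at resolution 2, 0.312 with the genes kept among the variable genes, 0.246 as a mean over cells and 0.204 after thinning to 3000 UMIs. Alternatives chosen after seeing the data gave 0.256 with intercalated-like cells added, 0.361 in cells with at least 10000 UMIs and 0.566 in sub-cluster 36 alone. The cause of these shifts was not tested. TMM moved the log2 ratio of all genes in distal cells by 0.03. The count of 7 genes past 1.5-fold became 4 after thinning, where fewer genes reached the UMI minimum, and lay between 5 and 8 under the other alternatives. S100g, Calb1, Slc8a1 and Slc12a3 were at least 1.5-fold lower under all 12. Trpm6 and Trpv5 had under 50 UMIs after thinning, and of the other 11 Trpm6 was at least 1.5-fold lower under 11 and Trpv5 under 9, the exceptions for Trpv5 being sub-cluster 36 (0.741) and the addition of intercalated-like cells (0.705). Slc8a1 lay between 0.0340 and 0.222. Trpv6 was below 1 under 10, with under 50 UMIs after thinning, and Atp2b1 under 9 of the 12. The S100g ratio outside the nephron, 0.169, was 0.196 with clusters found in each library alone and between 0.160 and 0.186 otherwise. Distal results with each library clustered alone were not run, because no cluster of the KO library then took the distal name. No paired analysis was possible because each genotype has 1 library. The 45 KO distal cells limit every distal ratio.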
